A study of Homo sapiens with 12 samples.

Results

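The genes described here were 9 members of the fibroblast growth factor (FGF) system: the receptor genes FGFR1, FGFR2, FGFR3 and FGFR4, the decoy receptor FGFRL1, the ligands FGF2 and FGF5, the intracellular factor FGF11 and the carrier FGFBP1. They were chosen by name and are 9 of the 33514 gene symbols in the deposited single-cell count matrices. All 9 had UMIs in each of the 12 samples and passed the filter on low counts. For each of them the baseline level in 3 cell lines and the change with cetuximab were measured.

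The samples came from SCC1, SCC6 and SCC25, established lines of head and neck squamous cell carcinoma. Cetuximab is an antibody against EGFR, the receptor of epidermal growth factor. Each line received 100 nM cetuximab daily for 5 days, or PBS over the same time as the untreated control, and was profiled as single cells with the Chromium 3′ v2 chemistry. All 6 groups grew in the same serum-supplemented medium, and each tumour is represented by a single line. Each group held 2 replicates. The labels do not say whether these were separate cultures, and the methods of the study state only sequencing in duplicate, so p-values measure the spread between these samples, which may be technical.

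The matrices held 23914 cells, with 57057402 to 112170073 UMIs per sample and a median of 24078.5 to 54864 UMIs per cell. Barcodes found in both replicates of a group numbered 3 to 10, against 1 to 13 for samples from unlike groups. All 10 squamous epithelial markers were detected in every group. The 5 endothelial markers summed to at most 0.753 CPM and the 6 immune markers to at most 13.5 CPM. This highest immune sum was in untreated SCC1 (10.7 to 13.5 CPM), where CD3E and CD14 were the only 2 with a UMI. PTPRC, CD3E, ALB and HBB together came to at most 0.0105 CPM there, so nearly all of the immune sum was CD14. TYROBP was at 0 in 5 of the 6 groups.

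Levels are given in counts per 1e6 UMIs (CPM) after scaling with TMM factors. A UMI from a 3′ kit stands for 1 captured molecule whatever the length of its transcript, so levels of different genes were set side by side as molecules without correction for length, and capture per gene was not measured. The count test was the quasi-likelihood F-test of edgeR on counts summed per sample. A gene is called where its p-value, adjusted over the 17897 genes tested, was under 0.05.

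Secreted FGFs bind receptor tyrosine kinases together with heparan sulphate chains at the cell surface, and the activated receptors signal through FRS2, RAS and the MAP kinases, with Sprouty proteins and MAP kinase phosphatases as feedback inhibitors. Alternative splicing gives FGFR1, FGFR2 and FGFR3 epithelial and mesenchymal forms of different ligand preference, which 3′ counting does not separate. FGF2 is held in the matrix and is released from it by the carrier protein that FGFBP1 encodes, FGF11 belongs to a subgroup that stays inside the cell, and FGFRL1 binds ligands but lacks the kinase domain.

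RefSeq (GRCh38.p14, of the same build that the submitters' processing notes name) places 5 of the 9 genes on chromosome 4. FGFRL1 lies at chr4:1010212-1026898, FGFR3 at chr4:1793293-1808867, FGFBP1 at chr4:15935577-15938740 on the minus strand, FGF5 at chr4:80266588-80291017 and FGF2 at chr4:122826682-122898236. FGFR4 lies at chr5:177086915-177098144, FGFR2 at chr10:121478330-121598458 on the minus strand and FGF11 at chr17:7438298-7444937. FGF2 overlaps NUDT6, which runs on the opposite strand at chr4:122892577-122922968. Strand use in the counting is not given in the sources used here, and whether reads of the pair were kept apart was not checked. NUDT6 had 4582 UMIs over all samples against 7850 for FGF2.

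The 250 bases before the transcription starts of FGFBP1, FGFR2 and FGF11 are shown 5′ to 3′ on the strand of the gene, with CpG dinucleotides in capitals. For FGFR2 and FGF11, which have 5 and 3 starts in the table, the most upstream start was taken. The windows lie at chr4:15938741-15938990 (minus strand), chr10:121598445-121598694 (minus strand) and chr17:7438048-7438297 (plus strand). The FGFR2 window begins at base 121598445 and overlaps the gene as placed above, which ends at base 121598458.
FGFBP1: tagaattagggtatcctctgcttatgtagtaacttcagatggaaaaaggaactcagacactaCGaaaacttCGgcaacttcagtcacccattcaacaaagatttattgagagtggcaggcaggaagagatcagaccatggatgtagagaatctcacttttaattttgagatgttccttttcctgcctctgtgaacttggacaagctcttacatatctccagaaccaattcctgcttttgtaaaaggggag
FGFR2: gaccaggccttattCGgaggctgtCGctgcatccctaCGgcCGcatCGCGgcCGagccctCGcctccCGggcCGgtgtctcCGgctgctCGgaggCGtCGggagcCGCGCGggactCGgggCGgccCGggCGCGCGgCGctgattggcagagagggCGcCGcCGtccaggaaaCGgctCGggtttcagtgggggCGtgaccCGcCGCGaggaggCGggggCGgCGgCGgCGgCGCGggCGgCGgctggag
FGF11: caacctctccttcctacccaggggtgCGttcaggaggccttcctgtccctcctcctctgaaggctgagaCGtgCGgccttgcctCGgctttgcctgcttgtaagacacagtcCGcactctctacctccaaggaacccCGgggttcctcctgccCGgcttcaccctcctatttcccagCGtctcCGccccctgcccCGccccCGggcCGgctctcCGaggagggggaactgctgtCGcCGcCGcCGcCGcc
The FGFBP1 window held 2 CpG dinucleotides with a G and C content of 40.8%, the FGFR2 window 42 with 78.4%, and the FGF11 window 18 with 68%. Among the 35116 promoter windows of the table the median was 11 CpG dinucleotides with 58% G and C. Of all windows, 14.7% had fewer CpG dinucleotides than that of FGFBP1 and 98.6% fewer than that of FGFR2. None of the 3 windows held TGANTCA (the AP-1 motif, in 6.57% of all windows), GCCNNNGGC (TFAP2, 19.8%) or CCGGAAG (ETS, 8.52%) on either strand, which says only that these letters are not in these bases. Over all starts of each gene, GCCNNNGGC was in 1 of the 3 windows of FGF11, not the one shown, and in 0 of the 5 of FGFR2.

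To establish the baseline of the FGF system, the untreated cells of the 3 lines were compared. SCC1 had the highest FGF2 and FGF5 and almost no FGFR1. SCC25 had the most receptor molecules, led by FGFR2. SCC6 had the lowest FGFR2, FGF5, FGF11 and FGFBP1 and the highest FGFRL1 and FGFR4, the last not called against SCC25.

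Between untreated SCC6 and SCC1, 8 of the 9 genes were called, 3 higher and 5 lower, where 40.2% of all genes tested were called, 21.5% higher and 18.6% lower. Between SCC25 and SCC1 the count was 4, 2 higher and 2 lower, beside 40.8% (23.4% higher, 17.3% lower). Between SCC6 and SCC25 it was 6, 1 higher and 5 lower, beside 40.9% (18.7% higher, 22.2% lower). The values of both samples of one line lay apart from those of the other for 8, 8 and 9 of the 9 genes, beside 70%, 71.2% and 65.9% of all genes. With plain library totals in place of TMM factors the median log2 difference of all genes moved from 0.00, 0.04 and 0.00 to -0.31, -0.15 and -0.15, and the share of all calls that were higher from 53.6%, 57.4% and 45.7% to 36.5%, 46.8% and 37.9%.

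**Figure D1:**
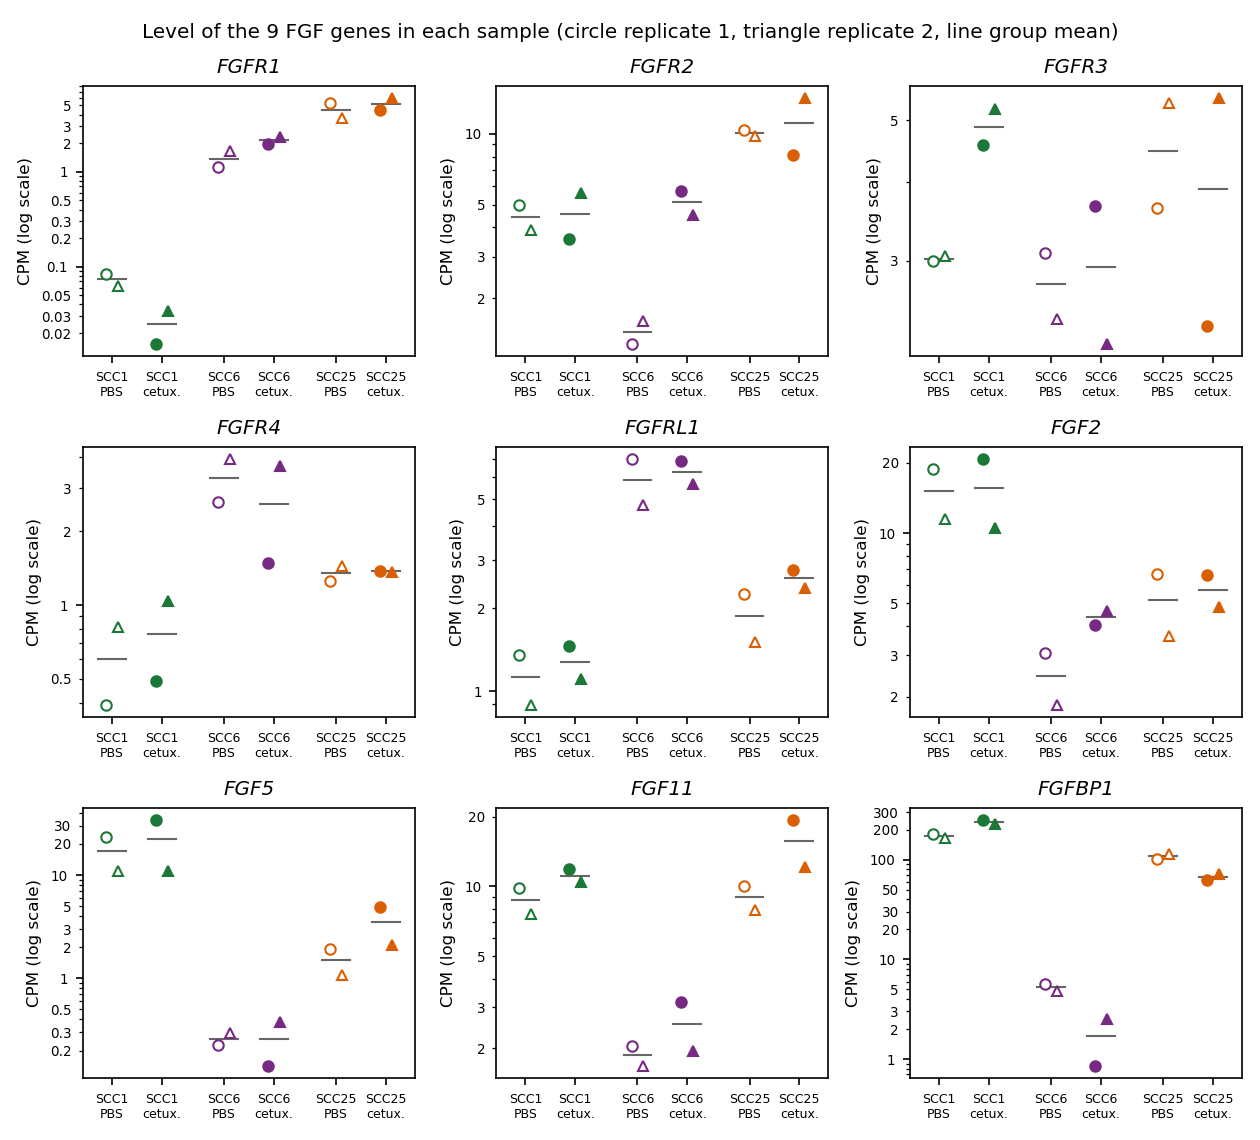
Level of each FGF gene in CPM (vertical axes, log scale, a different range in each panel) in the 12 samples, with PBS as open and cetuximab as filled symbols, circles for replicate 1, triangles for replicate 2 and a line at the mean of the group. FGFBP1 lay between 166 and 249.6 CPM in SCC1 and between 0.850 and 5.62 CPM in SCC6, and FGFR1 was at most 0.0838 CPM in SCC1.

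FGFR1, a receptor widely used by mesenchymal cells, was at 0.0838 and 0.0629 CPM in the untreated SCC1 samples, which was 6 and 6 UMIs. It reached 1.11 and 1.64 CPM in SCC6 and 5.36 and 3.66 CPM in SCC25. The 3 lines did not overlap. The log2 difference was 5.93 ± 0.43 (SE) between SCC25 and SCC1 (edgeR adjusted p = 6.74e-06), 4.22 ± 0.42 between SCC6 and SCC1 (edgeR adjusted p = 3.46e-05) and -1.71 ± 0.32 between SCC6 and SCC25 (edgeR adjusted p = 0.00206).

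FGFR2, whose epithelial form binds FGF7 and FGF10, was at 4.96 and 3.90 CPM in SCC1, 1.28 and 1.60 CPM in SCC6 and 10.4 and 9.74 CPM in SCC25. The order of the lines was SCC25, SCC1, SCC6, with no overlap. SCC6 was 6.98-fold below SCC25 (edgeR adjusted p = 0.000153) and 3.07-fold below SCC1 (edgeR adjusted p = 0.00318), and SCC25 was 2.27-fold above SCC1 (edgeR adjusted p = 0.0139). The last of these calls was lost without untreated SCC1 replicate 2 (edgeR adjusted p = 0.103).

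FGFR3, a receptor known for activating mutations in bladder cancer, was not called in any pair of lines. It was at 2.99 and 3.05 CPM in SCC1, 3.08 and 2.43 CPM in SCC6 and 3.64 and 5.33 CPM in SCC25. The log2 differences were -0.13 ± 0.39 between SCC6 and SCC1, 0.57 ± 0.39 between SCC25 and SCC1 and -0.70 ± 0.39 between SCC6 and SCC25.

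FGFR4, the preferred receptor of the FGF19 subfamily, was at 0.391 and 0.817 CPM in SCC1, 2.64 and 3.93 CPM in SCC6 and 1.26 and 1.44 CPM in SCC25. SCC6 was 5.37-fold above SCC1 (edgeR adjusted p = 0.00467). The other steps of the order, SCC6 over SCC25 and SCC25 over SCC1, had edgeR adjusted p-values of 0.0647 and 0.105, which became 0.00956 and 0.0145 with the replicate number as a block, where 54.4% and 54.7% of all genes were called. SCC6 over SCC25 was also called by DESeq2 and without the filter on low counts.

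FGFRL1, the decoy receptor, was at 1.36 and 0.890 CPM in SCC1, 6.98 and 4.74 CPM in SCC6 and 2.25 and 1.52 CPM in SCC25. SCC6 was 5.23-fold above SCC1 (edgeR adjusted p = 0.000346) and 3.11-fold above SCC25 (edgeR adjusted p = 0.00280). SCC25 and SCC1 differed by 0.75 ± 0.33 on the log2 scale, which was called with the replicate block (edgeR adjusted p = 0.0103) but not without it (edgeR adjusted p = 0.0929).

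The 4 kinase receptors together gave 8.43 and 7.82 CPM in untreated SCC1, 8.10 and 9.60 CPM in SCC6 and 20.6 and 20.2 CPM in SCC25. FGFR2 made up 54.3% ± 6.42 (SD, n = 2) of these receptor UMIs in untreated SCC1, 49.3% ± 1.42 in SCC25 and 16.2% ± 0.642 in SCC6. FGFR4 made up 36.7% ± 5.93 in SCC6 against 7.54% ± 4.10 in SCC1 and 6.62% ± 0.731 in SCC25. FGFR1 contributed 0.899% ± 0.136 in SCC1 and 22.1% ± 5.51 in SCC25. The FGFR2 share was lowest in SCC6 and the FGFR1 share highest in SCC25, with no overlap with the other lines.

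**Figure D2:**
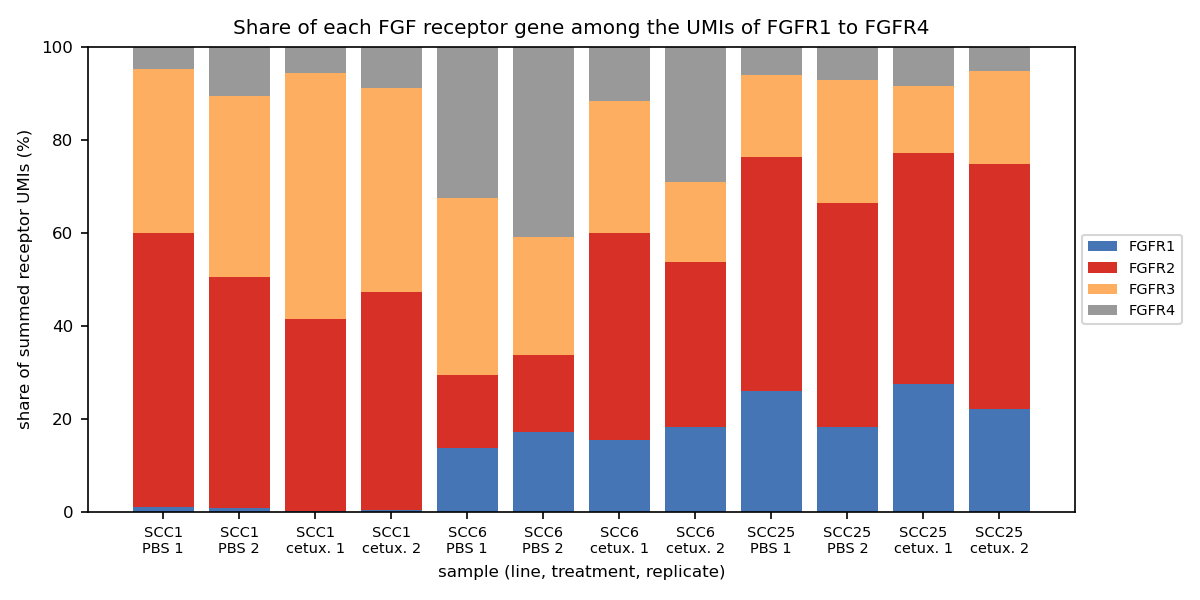
Share of FGFR1, FGFR2, FGFR3 and FGFR4 (stacked bars, per cent) among the summed UMIs of these 4 genes in each of the 12 samples. FGFR2 filled 15.8% and 16.7% of the bar in untreated SCC6 and 44.6% and 35.3% after cetuximab, and FGFR1 at most 0.995% in SCC1.

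FGF2, a matrix-bound growth factor that binds several FGF receptors, was at 18.8 and 11.5 CPM in SCC1, 3.07 and 1.84 CPM in SCC6 and 6.70 and 3.64 CPM in SCC25. SCC1 was above both other lines, 6.19-fold over SCC6 (edgeR adjusted p = 0.00106) and 2.94-fold over SCC25 (edgeR adjusted p = 0.0148). The SCC25 call was lost without untreated SCC1 replicate 1 or untreated SCC25 replicate 2 (edgeR adjusted p = 0.106 and 0.0982). SCC6 minus SCC25 was -1.08 ± 0.43 on the log2 scale, which missed the threshold (edgeR adjusted p = 0.0677) and was called with the replicate block (edgeR adjusted p = 0.00563) and by DESeq2 (adjusted p = 0.0380).

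FGF5, a secreted ligand known for ending the growth phase of hair, was at 23.4 and 11.02 CPM in SCC1, 0.227 and 0.294 CPM in SCC6 and 1.91 and 1.08 CPM in SCC25. The order SCC1, SCC25, SCC6 held for all samples. SCC1 was 65.6-fold above SCC6 (edgeR adjusted p = 0.000210) and 11.6-fold above SCC25 (edgeR adjusted p = 0.00224). SCC6 was 5.67-fold below SCC25 (edgeR adjusted p = 0.0186), a call that was lost without untreated SCC6 replicate 1, SCC6 replicate 2 or SCC25 replicate 1 (edgeR adjusted p = 0.108, 0.0719 and 0.0841).

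FGF11 was at 9.87 and 7.62 CPM in SCC1, 2.05 and 1.68 CPM in SCC6 and 10.1 and 7.89 CPM in SCC25. SCC1 and SCC25 overlapped, with a log2 difference of 0.04 ± 0.30 that turned to -0.16 with plain library totals. SCC6 was 4.69-fold below SCC1 and 4.82-fold below SCC25 (edgeR adjusted p = 0.000406 and 0.000401).

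FGFBP1 was the most abundant of the 9 genes in untreated SCC1 and SCC25 but not in SCC6, where the group mean of FGFRL1 was higher (5.86 against 5.23 CPM). It was at 181 and 166 CPM in SCC1, 101 and 116 CPM in SCC25 and 5.62 and 4.83 CPM in SCC6. SCC6 was 33.2-fold below SCC1 and 20.7-fold below SCC25 (edgeR adjusted p = 1.45e-05 and 3.34e-05). The values of SCC1 and SCC25 did not overlap, but the log2 difference of -0.68 ± 0.36 did not pass the test (edgeR adjusted p = 0.161).

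To determine how EGFR blockade moved these genes, cetuximab and PBS samples were compared within each line. In SCC6, FGFR2 rose 3.55-fold and FGFBP1 fell 3.08-fold. None of the 9 genes was called in SCC1 or SCC25, as a mean effect over the 3 lines, or for a difference of the effect between lines. FGF11 was higher with cetuximab in 6 of 6 replicate pairs, as were 10.5% of all genes tested. Its mean effect was called with the replicate block and by DESeq2 (beside 11.6% and 9.85% of all genes) but not without the block.

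The 2 calls in SCC6, 1 higher and 1 lower, stand beside 3.81% of all genes called there, 2.51% higher and 1.3% lower. The 682 genes behind this share became 61 without treated replicate 1, 339 without treated replicate 2, 11 without PBS replicate 1 and 749 without PBS replicate 2. DESeq2 also called 2 members there, and 9.19% of all genes. With plain totals the median log2 change of all genes in SCC6 moved from 0.00 to 0.23, and the share of calls that were higher from 65.8% to 83.9%; with DESeq2 it was 54.3%.

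In SCC1 edgeR called 0 members and 0.0168% of all genes, with 0 members at an unadjusted p under 0.05, and DESeq2 called 0 members and 1.47% of all genes. In SCC25 edgeR called 0 members and 0% of all genes, with 1 member at an unadjusted p under 0.05, and DESeq2 called 0 and 0.553%. Across lines edgeR called 0 members and 3.67% of all genes, with 2 at an unadjusted p under 0.05, and DESeq2 called 1 and 9.85%. For the interaction of line and treatment edgeR called 0 members and 0% of all genes, with 3 at an unadjusted p under 0.05, and DESeq2 called 1 and 1.48%. Over all 17897 genes tested, an unadjusted p under 0.05 was found for 1570 in SCC1 and 1041 in SCC25. The number was 3757 across lines and 1318 for the interaction. With plain totals the median change of all genes across lines moved from 0.01 to 0.11, and the share of calls that were higher from 69.1% to 85.4%, against 57.9% with DESeq2. Members whose treated samples both lay above or both below the PBS samples numbered 4 in each line, beside 42.7%, 46.9% and 29.7% of all genes in SCC1, SCC6 and SCC25.

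**Figure D3:**
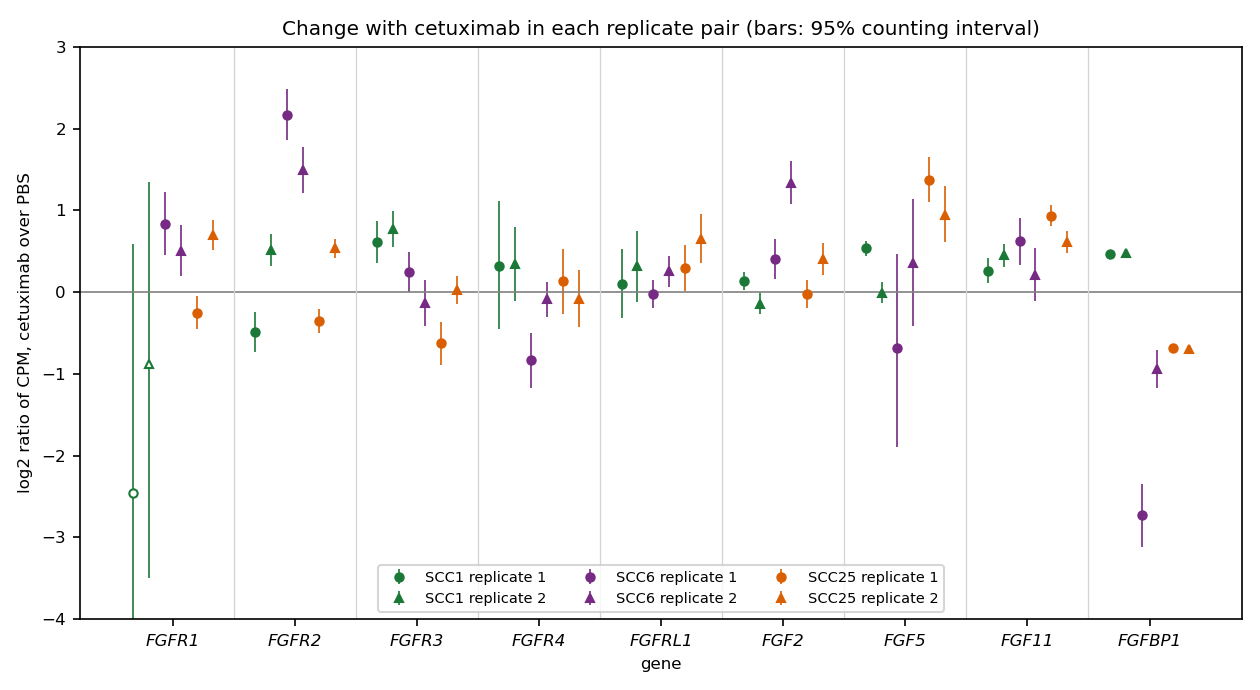
Log2 ratio of CPM, cetuximab over PBS, for each gene in the 6 pairs of samples with the same line and replicate number, with 95% intervals that cover counting error only; open symbols mark pairs with 3 or fewer UMIs in 1 sample, and the lowest bar is cut at the edge of the axis. FGFR2 was above 0 in both SCC6 pairs (2.17 and 1.49), FGFBP1 below 0 in both (-2.73 and -0.94), and FGF11 above 0 in all 6. Of all genes tested, 10.5% were above 0 in all 6 pairs.

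FGFR2 in SCC6 went from 1.28 and 1.60 CPM with PBS to 5.73 and 4.50 CPM with cetuximab, or from 107 and 147 UMIs to 445 and 407. Both treated samples lay above both untreated ones. The log2 change was 1.83 ± 0.33 (edgeR adjusted p = 0.0186). The call was lost without treated replicate 1 or without PBS replicate 1 (edgeR adjusted p = 0.124 and 0.181), with log2 changes of 1.64 and 1.67.

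In treated SCC1 FGFR2 was at 3.55 and 5.57 CPM and in treated SCC25 at 8.11 and 14.1 CPM, so that the treated samples lay on both sides of the untreated ones in both lines. The log2 changes of 0.05 ± 0.32 and 0.15 ± 0.31 did not pass the test. The difference of the FGFR2 response between lines had an edgeR adjusted p of 0.414 and a DESeq2 adjusted p of 0.0372.

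FGFR1 was at 1.98 and 2.33 CPM in treated SCC6, above both untreated samples, and at 4.50 and 5.95 CPM in treated SCC25. The log2 changes of 0.65 ± 0.32 and 0.21 ± 0.31 did not pass the test (edgeR adjusted p = 0.290 and 1). In treated SCC1 there were 1 and 3 UMIs of FGFR1 against 6 and 6, and the counting intervals of the log2 ratio ran from -7.98 to 0.59 and from -3.50 to 1.35. A change of FGFR1 in SCC1 was not detectable at this depth.

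FGFR3 was at 4.56 and 5.21 CPM in treated SCC1, above both untreated samples, with ratios of 1.53 and 1.71 in the pairs. The log2 change of 0.69 ± 0.39 was not called (edgeR adjusted p = 0.704). It was at 3.66 and 2.21 CPM in treated SCC6 and at 2.36 and 5.42 CPM in treated SCC25, where treated and untreated samples overlapped.

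FGFR4 was at 0.490 and 1.04 CPM in treated SCC1, 1.48 and 3.69 CPM in treated SCC6 and 1.38 and 1.36 CPM in treated SCC25. FGFRL1 was at 1.46 and 1.11 CPM in treated SCC1, 6.88 and 5.66 CPM in treated SCC6 and 2.77 and 2.38 CPM in treated SCC25. Neither passed the test in any line, and treated and untreated values of FGFRL1 were apart in SCC25 alone, where the log2 change was 0.45 ± 0.32. FGFRL1 was higher in replicate 1 than in replicate 2 in 6 of 6 groups, by 1.16 to 1.52 times.

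The receptor mix of SCC6 after cetuximab held 40.0% ± 6.55 FGFR2 (SD, n = 2) against 16.2% ± 0.642 with PBS, and the summed level was 12.9 and 12.7 CPM against 8.10 and 9.60 CPM. In treated SCC1 the FGFR2 share was 44.1% ± 4.11 and in treated SCC25 51.1% ± 2.13. These shares rest on the FGFR2 counts tested above and were not tested again.

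FGF2 in SCC6 was at 4.06 and 4.66 CPM with cetuximab against 3.07 and 1.84 CPM, both treated samples above both untreated ones. The log2 change of 0.83 ± 0.43 was not called (edgeR adjusted p = 0.315). With the replicate block it was 0.87 ± 0.23 and was called (edgeR adjusted p = 0.0348, where 20.1% of all genes were called). NUDT6, which overlaps FGF2, was at 2.36 and 6.59 CPM with PBS and 2.99 and 5.44 CPM with cetuximab in SCC6. In treated SCC1 FGF2 was at 20.7 and 10.5 CPM and in treated SCC25 at 6.62 and 4.84 CPM, overlapping the untreated values.

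FGF5 in SCC25 was at 4.94 and 2.08 CPM with cetuximab against 1.91 and 1.08 CPM, and the pairs gave ratios of 2.59 and 1.93. The log2 change of 1.24 ± 0.63 did not pass the test (edgeR adjusted p = 0.8995). In treated SCC1 the samples at 33.9 and 10.96 CPM overlapped the untreated ones, and in SCC6 FGF5 had 11 and 34 UMIs with cetuximab against 19 and 27. The replicates of SCC1 were far apart, with 2.13-fold the level in replicate 1 with PBS and 3.10-fold with cetuximab.

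FGF11 was at 11.8 and 10.4 CPM in treated SCC1, 3.16 and 1.95 CPM in treated SCC6 and 19.3 and 12.1 CPM in treated SCC25. The treated samples lay above both untreated ones in SCC1 and SCC25 and overlapped them in SCC6. The pairs gave ratios of 1.20 and 1.37 for SCC1, 1.54 and 1.16 for SCC6 and 1.92 and 1.53 for SCC25.

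A value above PBS in 6 of 6 pairs stands beside 10.5% of all genes. The mean effect on FGF11 over the lines was 0.54 ± 0.17 on the log2 scale (edgeR adjusted p = 0.101). It was called with the replicate block (0.52 ± 0.11, edgeR adjusted p = 0.0242, with 11.6% of all genes called) and by DESeq2 (adjusted p = 0.0452). FGF11 was higher in replicate 1 than in replicate 2 in 6 of 6 groups, by 1.14 to 1.62 times.

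FGFBP1 in SCC6 went from 5.62 and 4.83 CPM to 0.850 and 2.52 CPM, or from 471 and 444 UMIs to 66 and 228. Both treated samples lay below the untreated ones and far apart from each other, with pair ratios of 0.151 and 0.522. The log2 change was -1.63 ± 0.38 (edgeR adjusted p = 0.0455). The call was lost with plain library totals (edgeR adjusted p = 0.0602), when SCC6 was fitted on its own (edgeR adjusted p = 0.181), and without treated replicate 1, PBS replicate 1 or PBS replicate 2 (edgeR adjusted p = 0.119, 0.246 and 0.0732). The log2 change was -1.05 without treated replicate 1 and -2.63 without treated replicate 2.

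In the other lines FGFBP1 was far more abundant and its pairs were close to each other. It was at 249.6 and 232 CPM in treated SCC1, above both untreated samples, with ratios of 1.38 and 1.39. It was at 62.8 and 71.6 CPM in treated SCC25, below both untreated samples, with ratios of 0.622 and 0.620. The log2 changes of 0.47 ± 0.36 and -0.69 ± 0.36 did not pass the test (edgeR adjusted p = 0.833 and 0.916), and the difference of the FGFBP1 response between lines had an edgeR adjusted p of 0.468.

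Other marker lists differed in level between the same samples. The 8 fibroblast markers summed to 7.23 to 7.53 CPM with PBS and 15.4 to 16.6 CPM with cetuximab in SCC1. Their sum was 1.15 to 3.33 CPM against 23.0 to 27.3 CPM in SCC6 and 21.9 to 42.5 CPM against 46.5 to 84.3 CPM in SCC25. In SCC6 3 of these 8 were called, with PDGFRA at 0 with PBS and THY1 at 0 with cetuximab. The 10 squamous markers summed to 1219.7 to 1439 CPM with PBS and 2512 to 3260.0 CPM with cetuximab in SCC6, where 2 were called and 4 of the 10 had a log2 change below 0. In SCC1 the sums were 5949 to 6718 CPM and 10050 to 10507 CPM, with 0 called by edgeR and 5 of 10 below 0, and in SCC25 they overlapped. The log2 change of all 15 proliferation markers was below 0 in each line, with 0 called by edgeR. Their sums were 1921 to 2509 CPM with PBS and 731 to 1469.9 CPM with cetuximab for SCC1, 2249.8 to 3491 and 1658 to 2317 CPM for SCC6, and 1698 to 2168 and 1476 to 1509 CPM for SCC25. The part of these lists in the FGF results was not tested, and in sums over cells fewer cells with a transcript and less transcript per cell cannot be told apart.

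To look at the number of positive cells, each cell was thinned to 15000 UMIs, which kept 23063 cells and left out 851, between 2.39% and 6.12% of a group. After thinning, FGFR2 was detected in 1.58% and 2.01% of untreated SCC6 cells and in 8.37% and 7.50% of treated ones. Without thinning these shares were 3.44% and 5.43% against 13.7% and 19.8%. PTPRC, CD3E, ALB and HBB, which squamous cells should lack, were detected in at most 0.183% of the thinned cells of any sample. Such genes cannot measure free RNA of genes that the lines express, which was not tested.

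FGFBP1 was detected in 79.5% and 77.7% of untreated SCC1 cells and 82.0% and 84.9% of treated ones. In SCC25 the shares were 62.1% and 61.0% with PBS and 45.9% and 43.9% with cetuximab, and in SCC6 5.05% and 5.38% with PBS and 1.35% and 3.66% with cetuximab. The direction in each line was that of the level.

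FGF11 was detected in 14.98% and 11.7% of untreated SCC1 cells and 19.4% and 16.1% of treated ones. The shares were 2.98% and 2.59% against 4.67% and 3.11% in SCC6, and 13.6% and 9.95% against 24.3% and 17.6% in SCC25. Averaged over the 3 lines, cetuximab minus PBS came to 4.89 percentage points, with a higher share in 6 of 6 pairs. An exact two-sided permutation test with labels permuted within lines gave p = 0.00926, the smallest it allows, and 0.0833 after Benjamini-Hochberg adjustment over the 9 tests. None of the 9 shares passed after adjustment. A single gene at the smallest p could not pass over 9 tests, so no conclusion is drawn from this. The share of FGF2 was also higher in 6 of 6 pairs, by 1.75 percentage points on average (exact permutation p = 0.361, adjusted 0.417). After thinning to 10000 UMIs it was higher in 5 of 6 (exact permutation p = 0.528). The level of FGF2 in CPM was higher in 4 of 6 pairs. With the replicate numbers taken as pairs, an exact two-sided sign-flip permutation test was run over the 6 pairs. It gave FGF11 and FGF2 the same p of 0.0313, the smallest it allows, and 0.141 after adjustment. Being at the smallest p, these genes could not have passed by a larger effect of their own. Within 1 line, 2 against 2 samples cannot reach 0.05, and no test was made.

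**Figure D4:**
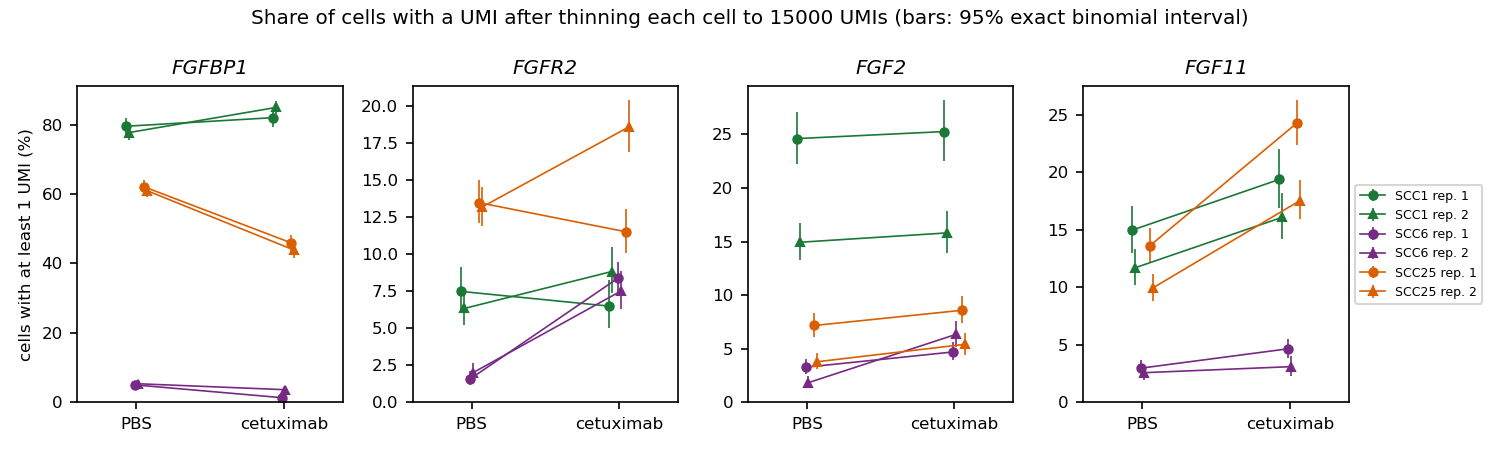
Share of cells with at least 1 UMI (per cent, axes from 0) of FGFBP1, FGFR2, FGF2 and FGF11 after thinning each cell to 15000 UMIs, with PBS and cetuximab samples of the same replicate number joined and bars for the 95% exact binomial interval, which covers counting error only. FGF11 and FGF2 were higher with cetuximab along all 6 lines of the plot, and FGFBP1 was higher in SCC1 and lower in SCC6 and SCC25.

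FGF2 was detected in 24.6% and 14.9% of untreated SCC1 cells and in 25.3% and 15.8% of treated ones. Its shares were 3.28% and 1.85% with PBS against 4.71% and 6.35% with cetuximab for SCC6, and 7.18% and 3.80% against 8.59% and 5.42% for SCC25. FGF5 was detected in 23.1% and 11.6% of untreated SCC1 cells. In untreated SCC6 the FGF5 share was 0.264% and 0.452%. At least 1 of the 4 kinase receptors was detected in 12.8% ± 1.76 (SD, n = 2) of untreated SCC1 cells, 10.7% ± 1.36 of SCC6 cells and 25.7% ± 1.42 of SCC25 cells. After cetuximab these shares were 16.5% ± 2.46, 18.1% ± 0.230 and 27.4% ± 7.70. Cells with 2 or more receptor genes made up at most 4.21% in any sample, a share that the thinned depth limits.

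FGF2 or FGF5 together with a kinase receptor was found in 4.53%, 2.13%, 4.90% and 3.64% of the cells of the 4 SCC1 samples. Independent detection at the same shares would give 5.70%, 2.78%, 6.26% and 4.62%. In the SCC6 samples the shares found were 0.566%, 0.328%, 1.20% and 1.28% against 0.343%, 0.262%, 0.867% and 1.23%. In the SCC25 samples they were 2.79%, 1.20%, 2.76% and 2.51% against 2.51%, 1.25%, 2.78% and 2.67%. The share found was below the product in all 4 SCC1 samples, above it in all 4 SCC6 samples and on both sides of it in SCC25, a description with no test. With 2436 and 1639 cells in replicate 2 of untreated and treated SCC6, the gaps there came to no more than a few cells.

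Within samples, cells were divided by detection of MKI67 or TOP2A, which mark dividing cells, a division chosen after values had been seen and given with no test. FGFR3 was lower in the positive cells in 12 of 12 samples, with a median ratio of 1.43 between negative and positive cells. In untreated SCC1 it was at 3.34 and 3.00 CPM in positive cells and 6.38 and 3.40 CPM in negative ones. FGF11 was lower in the positive cells in 10 of 12 samples, with a median ratio of 1.22. The other members were lower in the positive cells in 4 to 8 of 12 samples. How many of all genes would lie on the same side in 12 of 12 samples was not computed. The counts behind single samples were small, 15 to 84 UMIs of FGFR3 in the positive cells.

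Cells were also divided by detection of VIM, the gene of the mesenchymal filament vimentin. In SCC25 FGF5 was higher in VIM-positive cells in all 4 samples, at 2, 1.44, 4.50 and 2.54 CPM against 0.546, 0.401, 1.59 and 0.991 CPM. Over all samples it was higher in the positive cells in 11 of 12, again with no test. The other members were higher in VIM-positive cells in 3 (FGFR3) to 9 (FGFR4) of 12 samples. VIM-positive cells numbered 8 to 50 in the SCC1 samples, and in SCC6 FGF5 had 3 to 7 UMIs in the VIM-positive cells of a sample.

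**Figure D5:**
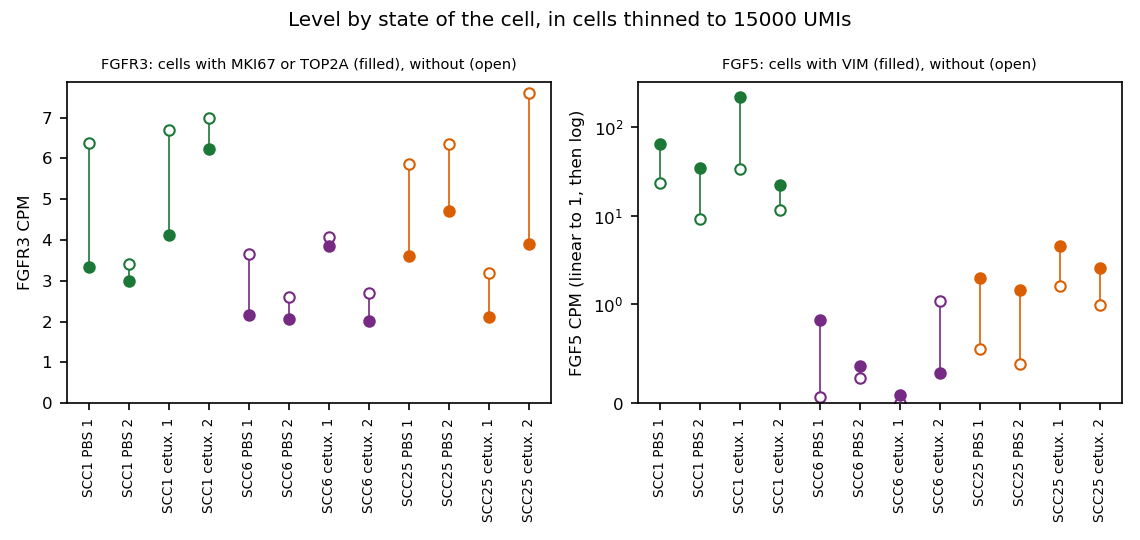
Level in CPM of FGFR3 in cells with (filled) and without (open) a UMI of MKI67 or TOP2A, and of FGF5 in cells with and without a UMI of VIM (axis linear to 1 CPM, then log), in each of the 12 samples after thinning. The open symbol lay above the filled one for FGFR3 in all 12 samples, and the filled one above the open one for FGF5 in 11.

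The UMIs of FGFBP1 were spread unevenly over the cells. The variance of its thinned counts was 3.03 to 4.68 times the mean in SCC1 and 2.47 to 3.31 times in SCC25, and the 10% of cells with most FGFBP1 held 32.6 to 34.5% of its UMIs in SCC1. FGF5 in SCC1 had a ratio of 1.58 to 2.92 and FGF2 of 1.28 to 1.43.

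The wider FGF pathway was described with a list of 88 genes in 7 groups, of which 85 had a UMI and 73 were tested. In SCC6, 9 were called with cetuximab, 6 higher and 3 lower, beside 3.81% of all genes, and the median log2 change was 0.02 beside 0.00 over all genes. With the replicate block 30 were called, 18 higher and 12 lower, beside 20.1% of all genes, and DESeq2 called 19, 10 higher and 9 lower, beside 9.19%. Across the lines 6 were called, 5 higher and 1 lower, beside 3.67% of all genes. The block called 15, beside 11.6%, and DESeq2 13, beside 9.85%. The median across lines was 0.03 beside 0.01.

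In SCC1 edgeR called 0 of the list, with 9 at an unadjusted p under 0.05, DESeq2 1 and the block 3. The counts over all genes were 3, 1570, 263 and 797 there. In SCC25 edgeR called 0, with 6 at an unadjusted p under 0.05, DESeq2 0 and the block 0, where the counts over all genes were 0, 1041, 99 and 175. For the interaction edgeR called 0, with 13 at an unadjusted p under 0.05, DESeq2 3 and the block 1, beside 0, 1318, 264 and 230 over all genes.

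Among the 13 binding proteins and coreceptors tested, 2 were called in SCC6, 2 higher and 0 lower, beside 3.81% of all genes. With the replicate block 9 were called, 6 higher and 3 lower, beside 20.1% of all genes. With DESeq2 there were 4, 3 higher and 1 lower, beside 9.19%. GPC4, a heparan sulphate proteoglycan of the cell surface, went from 2.27 and 3.28 CPM to 31.0 and 32.6 CPM (log2 change 3.52 ± 0.45, edgeR adjusted p = 0.00678). FLRT3, a membrane protein that binds FGF receptors, went from 0.680 and 1.47 CPM to 16.2 and 5.67 CPM (3.34 ± 0.55, edgeR adjusted p = 0.0143). SDC3, a syndecan, rose across the lines by 0.91 ± 0.20 on the log2 scale (edgeR adjusted p = 0.0332), and FLRT3 by 2.17 ± 0.43 (edgeR adjusted p = 0.0201). GPC4 was called across the lines too (edgeR adjusted p = 0.0171), but was at most 0.0691 CPM in any SCC1 or SCC25 sample, too low for a fold there.

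Of the 11 heparan sulphate enzymes, 2 rose and 1 fell in SCC6, against 5 and 2 with the block. Over all genes 3.81% were called in SCC6, and 20.1% with the block. NDST1, which begins the sulphation of the chains, rose from 13.6 and 19.3 CPM to 66.6 and 51.0 CPM (1.83 ± 0.34, edgeR adjusted p = 0.0201). HS3ST1, a 3-O-sulphotransferase, fell from 8.02 and 7.51 CPM to 0.979 and 1.85 CPM (-2.45 ± 0.49, edgeR adjusted p = 0.0259). Both were also called across the lines, at 1.15 ± 0.23 and -1.38 ± 0.34.

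Of 8 other FGF ligands tested, 1 was called in SCC6, beside 3.81% of all genes. FGF1 rose there from 0.728 and 1.45 CPM to 4.46 and 6.38 CPM (2.31 ± 0.43, edgeR adjusted p = 0.0209). FGF7 and FGF10, the stromal ligands of the epithelial FGFR2 form, were at most 0.582 CPM and 0.0218 CPM in any sample. FGF19 differed between the replicates of SCC25, at 1.22 and 7.43 CPM with PBS and 0.313 and 6.95 CPM with cetuximab. In untreated SCC25 it was called above SCC1 (edgeR adjusted p = 0.00740), where it was at 0.0419 and 0.0733 CPM, and above SCC6 (SCC6 minus SCC25, -3.83 ± 1.22 on the log2 scale).

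Of the 11 feedback inhibitors 1 fell in SCC6, where 3.81% of all genes were called. It was DUSP4, a phosphatase of MAP kinases, which went from 121 and 46.0 CPM to 10.5 and 20.7 CPM (-2.42 ± 0.48, edgeR adjusted p = 0.0259). Of 19 adaptors and transducers 1 was higher, and of 7 output transcription factors 1 was lower. Of 4 splicing regulators 0 were called by edgeR, with 3 at an unadjusted p under 0.05 and 1 called by DESeq2. Over all 17897 genes tested, 3561 had an unadjusted p under 0.05 in SCC6, and DESeq2 called 9.19%. With the block the counts called were 2 feedback inhibitors, 5 adaptors and transducers, 3 output transcription factors, 2 splicing regulators and 2 other ligands. The block called 20.1% of all genes in SCC6.

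Between untreated lines 33 of the 73 genes were called for SCC6 against SCC1, 29 for SCC25 against SCC1 and 29 for SCC6 against SCC25. Over all genes 40.2%, 40.8% and 40.9% were called, so these counts were near the background. The genes named here were all called. GPC4 was at 2.27 and 3.28 CPM in SCC6 and at 0 and 0.0629 CPM in SCC1, too low for a fold. FLRT3 was at 0.112 and 0.136 CPM in SCC1, 0.680 and 1.47 CPM in SCC6 and 8.20 and 10.4 CPM in SCC25, with a log2 difference of -3.11 ± 0.55 between SCC6 and SCC25. NRP1, a coreceptor of several growth factors, differed from SCC1 by 4.14 ± 0.35 in SCC6 and 4.17 ± 0.35 in SCC25. ETV1, an ETS family transcription factor, differed from SCC1 by -3.35 ± 0.55 in SCC6 and -3.48 ± 0.56 in SCC25.

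DUSP4 and SPRY2, a Sprouty inhibitor, were above SCC1 in SCC6 by 3.57 ± 0.51 and 2.78 ± 0.55. SULF2, an extracellular enzyme that removes sulphate from the chains, was above SCC1 in SCC25 by 2.84 ± 0.39. SCC6 minus SCC25 was 2.93 ± 0.26 for HS2ST1, a 2-O-sulphotransferase, and -2.60 ± 0.63 for FGF12, an intracellular factor like FGF11. SDC3 was above SCC1 in both other lines, by 2.92 ± 0.40 in SCC6 and 3.69 ± 0.41 in SCC25.

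The genes most like each of the 7 members with a group mean of at least 5 CPM were found by Pearson's r across the 12 samples, among 7558 genes; the points share lines and library sizes, and r is a description. The nearest were PTS and MARVELD2 for FGFBP1 (0.99 and 0.99), RTL8A and ACAP3 for FGFR2 (0.96 and 0.95), PCAT7 and LOXL1 for FGFR1 (0.99 and 0.98), SUPT5H and TNPO2 for FGFRL1 (0.99 and 0.98), CAMSAP2 and KIAA1191 for FGF2 (0.97 and 0.96), EIF2AK2 and SELENOS for FGF5 (0.98 and 0.98), and TMEM185A and SELENOM for FGF11 (0.98 and 0.98). After subtraction of the line means, the nearest were EMP1 and ENTPD6 for FGFBP1 (0.92 and 0.92), RTL8A and TTC3 for FGFR2 (0.93 and 0.93), MORC2 and C1orf56 for FGFR1 (0.90 and 0.87), TSC22D2 and USP31 for FGFRL1 (0.98 and 0.97), NPTN and CDK2AP1 for FGF2 (0.93 and 0.92), NFKB1 and ATF5 for FGF5 (0.90 and 0.89), and SELENOM and AKIRIN1 for FGF11 (0.96 and 0.93).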

How the data were processed

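Single-cell libraries of 12 samples (3 lines, cetuximab or PBS, 2 replicates) were analysed. Per the labels, the authors ran Cell Ranger on the reads (genome GRCh38 in the submitters' processing notes; its version and the annotation are not given in the sources used here) and deposited raw UMI counts per gene and cell for each line, beside a text table of cell names (unit other, per the file headers), from which each cell's sample was taken. The 24 symbols on more than 1 row were summed. Doublets were not called; the 5% of cells with most UMIs were left out as an alternative.

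Counts were summed per sample (0 columns of per-sample values were left unused) and tested with edgeR 4.0.16 in R 4.3.3 (TMM factors, filterByExpr, quasi-likelihood F-test, Benjamini-Hochberg over all genes tested) in 1 fit of 6 groups with 6 residual degrees of freedom. The code was tested on simulated data. The members and gene lists were chosen with earlier results of these data known. All 9 members are named in each contrast. Of the pathway list, called genes with a mean of at least 1 CPM are named, at most 6 per contrast by size of change. For each member with a mean of at least 5 CPM in a group, the 2 genes of highest r among those with at least 10 CPM are named.

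Replicate numbers come from the labels. Deviations from group means over 7558 genes correlated between same-numbered samples of a line (r = 0.68 in SCC1, 0.63 in SCC6, 0.72 in SCC25), and between same-numbered samples of different lines as well (r = 0.35 to 0.73), so the numbers were taken to pair the samples, and a fit with a replicate block (3 residual degrees of freedom) was run as an alternative. DESeq2 1.42.0, other scaling, filters, thinned sums and leaving out each sample were further alternatives. Shares of positive cells were compared after thinning to 15000 UMIs with exact permutation tests in Python 3.11.15 (scipy 1.17.1). Promoter windows and positions came from RefSeq GRCh38.p14, with a window for 8 of the 9 members. Intervals cover counting error only, at 95%.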

Additional observations from a re-analysis of the deposited data

Results flagged for a closer look

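For 3 genes both sample pairs of one line moved in one direction with cetuximab and both pairs of another line in the opposite one. The log2 effect on FGFR1 was 2.08 higher in SCC6 than in SCC1, where FGFR1 had 1 to 6 UMIs per sample. The effect on FGFR4 was 0.68 higher in SCC1 than in SCC6, with 28 and 32 UMIs in the PBS and cetuximab samples of replicate 1 of SCC1. The effect on FGFBP1 was 2.09 higher in SCC1 than in SCC6 and 1.16 higher than in SCC25. The edgeR test for any difference of the effect between the 3 lines did not pass for these genes (adjusted p = 0.667 for FGFR1, 1 for FGFR4 and 0.468 for FGFBP1), and single pairs of lines were not tested.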

How the results depend on the processing

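Of the values recomputed under each alternative, 1033 kept their direction and their side of the threshold, 42 turned in sign, 18 passed the threshold only under the alternative and 13 only without it; no value that was called turned in sign. The cause of these moves was not tested. The 2 calls in SCC6 became 1 with plain totals or with SCC6 fitted on its own, and 0 to 2 with 1 SCC6 sample left out. The count across the lines went from 0 to 1 (FGF11) with DESeq2, and to 1 with the replicate block, whether 1 block per line or 1 term shared by the lines. The interaction count went from 0 to 1 without a filter on low counts (FGFBP1) and to 1 with DESeq2 (FGFR2). With the replicate block, the pairing by number, 3 members were called in SCC6, 6 between SCC25 and SCC1 and 8 between SCC6 and SCC25. The block called 20.1%, 54.7% and 54.4% of all genes there, and it changed no other call of a member. Between SCC6 and SCC25, DESeq2 and the fit without the filter also called 8 members, beside 7735 and 7662 of all genes. Plain totals, or the untreated samples fitted on their own, called 7, beside 7093 and 6445. Plain totals and the shared term were chosen after seeing the data.

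Uncalled log2 changes that turned in sign were -0.0035 for FGFR2 in SCC1 and -0.092 for FGFR4 in SCC25 with thinned sums, 0.099 for FGFR4 across lines and -0.16 for FGF11 between untreated SCC25 and SCC1 with plain totals, and -0.0015 for FGF2 in SCC1 with the block. FGF5 in SCC6 turned to -0.0032 with RLE factors, -0.012 with DESeq2, -0.011 without cells over 20% mitochondrial UMIs and -0.028 with the block. With 1 sample left out, the lone sample being assumed to vary like the other groups, ranges that crossed 0 were FGFR1 -0.035 to 0.51 (in SCC25); FGFR2 -0.32 to 0.32 (in SCC1), -0.31 to 0.51 (in SCC25); FGFR3 -0.31 to 0.40 (in SCC6), -0.93 to 0.29 (in SCC25), -0.31 to 0.028 (untreated SCC6 minus untreated SCC1); FGFR4 -0.32 to 0.97 (in SCC1), -1.16 to 0.17 (in SCC6), -0.072 to 0.12 (in SCC25), -0.20 to 0.17 (across lines); FGFRL1 -0.086 to 0.51 (in SCC1), -0.16 to 0.40 (in SCC6); FGF2 -0.54 to 0.45 (in SCC1), -0.23 to 0.65 (in SCC25); FGF5 -0.66 to 1.02 (in SCC1), -0.88 to 0.53 (in SCC6); FGF11 -0.15 to 0.23 (untreated SCC25 minus untreated SCC1).

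Over all genes, the count called in SCC6 was 682, against 3589 with the block, 1644 with DESeq2 and 1233 without the filter; across lines it was 656, 2073, 1762 and 1043. The same 4 counts were 3, 797, 263 and 243 in SCC1, 0, 175, 99 and 128 in SCC25, and 0, 230, 264 and 248 for the interaction. Without 1 sample the count across lines was 202 to 596, and without 1 SCC6 sample the count in SCC6 was 11 to 749. Depth limited FGFR1 in SCC1, FGF5 in SCC6 and replicate 1 of FGFR4 in SCC1, with under 50 UMIs per sample.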
